A study of Homo sapiens with 8 samples.

Results

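The genes described here are the major histocompatibility complex (MHC) class II set of human myeloma cells, namely CIITA, the 6 chains HLA-DRA, HLA-DRB1, HLA-DPA1, HLA-DPB1, HLA-DQA1 and HLA-DQB1, the invariant chain gene CD74, and the peptide editor genes HLA-DMA and HLA-DMB. They make up 10 of the 63677 genes in the deposited count tables. The symbols were given as a list, and each was mapped to the 1 gene identifier that had been selected by its summed count over all 8 libraries. The 50 other identifiers that carried the same symbols, which lie on alternate haplotypes, held 0 counts in sum. CD74 and HLA-DRB1 had earlier been used, after their values were seen, to compare the identity of the libraries labelled H929. Contrasts that involve the THZ1 libraries of that label are therefore given as a description, without p-values. The same holds for CD74 and HLA-DRB1 between the DMSO libraries of both labels.

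The study treated the human multiple myeloma (MM) cell lines JJN3 and H929 with 50 nM THZ1, a covalent inhibitor of the transcriptional kinase CDK7, or with the solvent DMSO, for 24 h, and sequenced the RNA of 2 libraries in each of the 4 groups. The labels name 1 established cell line each and no engineered genetic change. They do not say whether the 2 libraries of a group came from separate cultures, so that p-values measure the spread between these samples only. Depth ran from 17476443 to 19194371 counts per library, and 3 counts, taken here as the floor of detection, corresponded to 0.156 to 0.172 CPM (counts scaled to library size). Such intervals and floors cover counting error only.

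The libraries labelled H929 did not share 1 light chain. A plasma cell clone makes immunoglobulin with either a kappa or a lambda light chain. Lambda genes took 99.99% and 97.96% of the light chain V counts in H929-labelled DMSO replicates 1 and 2, but 0.212% and 0.211% in the H929-labelled THZ1 libraries. The 4 JJN3 libraries held 0.257% to 0.391%. H929-labelled DMSO replicate 2 also held 305 counts of CD44 and 174 of SLAMF7, against 2 and 2 in replicate 1, and both genes were abundant in the H929-labelled THZ1 libraries (CD44, 14927 and 15298 counts). Under the H929 label the agent and the origin of the cells cannot be told apart, and the wording "H929-labelled" is kept throughout. Defining genes of macrophages and dendritic cells, the other cells known for high MHC class II, were near 0 in every library. The 8 listed genes summed to 0.104 to 1.29 CPM, CD163 had 0 counts in all 8 libraries, and none passed the filter on low counts in any comparison. Among 8 B cell genes CD22 was at 0 throughout and PAX5 did not exceed 12 counts in any library, while CD79B had 105 to 538 counts, BLK 122 to 173 and MS4A1 up to 72 in JJN3, and the list summed to 15.2 to 37.1 CPM. The 8 plasma cell genes summed to 1423 to 7024 CPM. Of 6 T cell genes, CD247 was counted 1442 to 1904 times per JJN3 library and CD3E 640 and 650 times in H929-labelled THZ1, and the list summed to 7.71 to 102 CPM.

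MHC class II molecules are pairs of an alpha and a beta chain that show peptides from the endosomal pathway to CD4 T cells. CD74 occupies the peptide groove of a new pair, is cut down by endosomal proteases, and its last fragment is exchanged for a peptide with the help of the HLA-DM pair, which HLA-DO holds back. Transcription of the whole set depends on CIITA, a coactivator that does not bind DNA itself but docks on a complex of RFX, CREB and NF-Y proteins at a shared promoter element, whose boxes are called X1, X2 and Y. CIITA is on in B cells and dendritic cells, is induced by interferon gamma, and is shut off by PRDM1 when B cells become plasma cells.

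Letters of the shared element were looked for in the reference promoters. RefSeq windows reaching from 250 bases before to 50 bases after the gene start (GRCh38.p14) were at hand for 8 of the 10 genes, CIITA and HLA-DRA having no entry in the table used. Each window was searched on both strands for GNAACNGA, taken here as the core of the X1 box, and for ATTGG, the core of the Y box to which NF-Y binds. The stretches of 59 bases below were placed by these letters alone, which do not show that the CIITA complex binds there. Capitals mark the X1 core and the Y box where found, CCAAT being the Y box read on the other strand. HLA-DOA, whose counts moved with HLA-DMB in JJN3, and HLA-DQA2, a near copy of HLA-DQA1, are printed for comparison. The bases are those of the reference haplotype and not of the alleles of these cell lines.
HLA-DRB1 (chr6:32589882-32589940, minus strand): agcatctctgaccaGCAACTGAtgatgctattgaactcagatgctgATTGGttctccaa
HLA-DQA1 (chr6:32637292-32637350, plus strand): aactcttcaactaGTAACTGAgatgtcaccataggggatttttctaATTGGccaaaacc
HLA-DQB1 (chr6:32666733-32666791, minus strand): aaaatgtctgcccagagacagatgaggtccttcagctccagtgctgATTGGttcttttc
HLA-DPA1 (chr6:33073703-33073761, minus strand): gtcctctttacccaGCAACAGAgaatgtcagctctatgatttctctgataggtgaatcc
HLA-DPB1 (chr6:33075845-33075903, plus strand): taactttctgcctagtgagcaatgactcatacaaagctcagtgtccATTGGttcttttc
HLA-DMA (chr6:32953164-32953222, minus strand): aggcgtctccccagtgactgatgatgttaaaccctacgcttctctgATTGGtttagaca
HLA-DMB (chr6:32941071-32941129, minus strand): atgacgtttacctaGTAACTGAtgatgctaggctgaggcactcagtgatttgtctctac
CD74 (chr5:150412951-150413009, minus strand): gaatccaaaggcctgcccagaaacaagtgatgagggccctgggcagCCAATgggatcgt
HLA-DOA (chr6:33009646-33009704, minus strand): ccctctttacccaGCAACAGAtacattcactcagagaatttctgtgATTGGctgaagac
HLA-DQA2 (chr6:32741277-32741335, plus strand): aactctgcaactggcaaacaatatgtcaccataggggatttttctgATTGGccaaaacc

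An X1 core followed by a Y box at 10 to 30 bases was found in HLA-DRB1 (24 bases between the boxes) and HLA-DQA1 (25 bases), and outside the 10 genes in HLA-DRB5 (24 bases) and HLA-DOA (25 bases). Of 35116 promoter windows of the same length, 12.9% held an X1 core, 34.6% a Y box and 0.256% (90 windows) the pair at this spacing. HLA-DPA1 and HLA-DMB had the X1 core without a Y box behind it, and HLA-DQB1, HLA-DPB1 and HLA-DMA a Y box without these exact X1 letters before it. HLA-DPA1 has a further RefSeq start, whose window held neither. In HLA-DQB1 and HLA-DMA, letters that differ from the X1 core only by a G for an A lie before the Y box. They lie near the place of the X1 core in HLA-DRB1, so missing exact letters do not show a missing box. The windows of HLA-DRB1 and HLA-DRB5 shared 58 of 59 letters, those of HLA-DQA1 and HLA-DQA2 51 of 59. These matches are a description of letters, and the files hold no binding data.

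**Figure D1:**
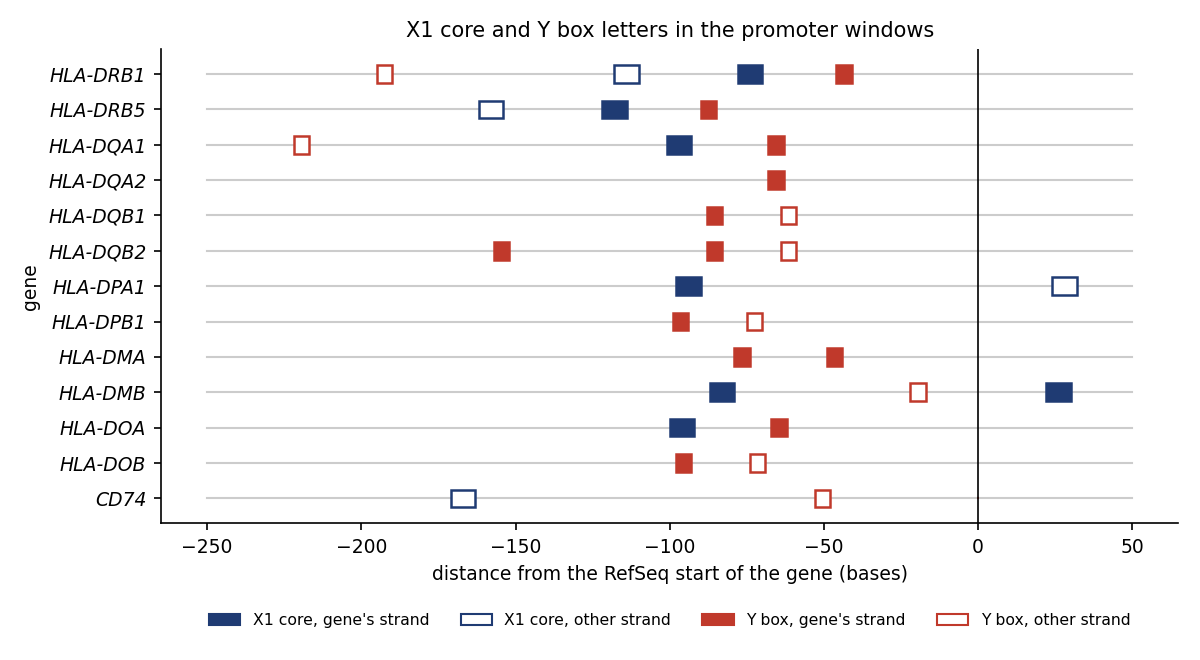
Positions of the X1 core (blue) and the Y box (red) in the RefSeq promoter windows of class II genes, in bases from the gene start on the x axis, with filled boxes for the strand of the gene and open boxes for the other strand. In HLA-DRB1, HLA-DRB5, HLA-DQA1 and HLA-DOA an X1 core precedes a Y box by 24 or 25 bases.

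Both the JJN3 libraries and the H929-labelled DMSO libraries expressed the full class II set, and the H929-labelled THZ1 libraries hardly any of it. The 10 genes together took 0.431% and 0.465% of all counts in JJN3 DMSO, 0.508% and 0.586% in JJN3 THZ1, and 1.10% and 0.949% in H929-labelled DMSO. They took 0.00115% and 0.00119% in H929-labelled THZ1. CD74 ranked first of all genes by count in both H929-labelled DMSO libraries. In JJN3 its rank was 42 and 38 under DMSO and 27 and 23 under THZ1, close to that of HLA-DRA (32 and 24, then 28 and 21).

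**Figure D2:**
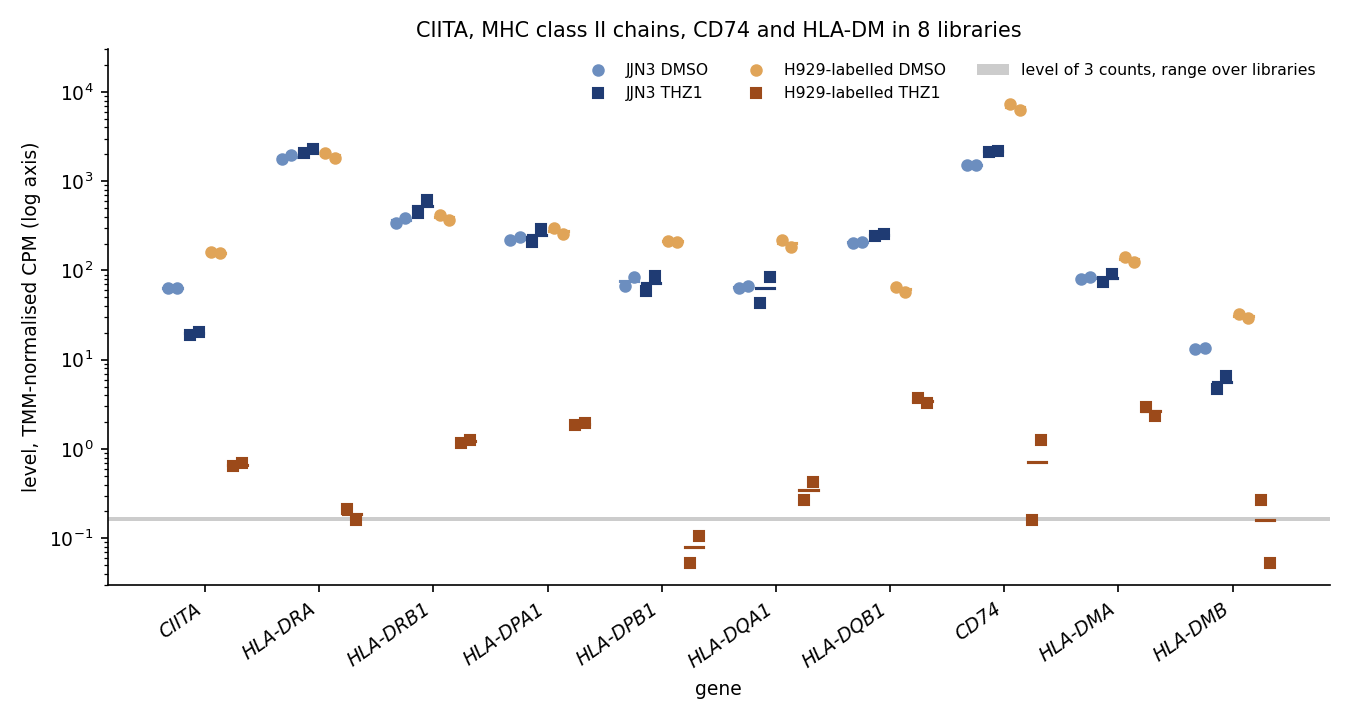
Level of each gene in every library as TMM-normalised CPM on a log axis, with 2 points per group, a short line at their mean, and a grey band at the level of 3 counts. The 10 genes sit far above the band in JJN3 and in H929-labelled DMSO, while in H929-labelled THZ1 both libraries of HLA-DPB1 and 1 library each of HLA-DRA, CD74 and HLA-DMB are at or below it.

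Per kilobase of the canonical transcript, HLA-DRA led in JJN3 DMSO with 1521 ± 109 CPM per kb (SD, n = 2), followed by CD74 (918 ± 7.18) and HLA-DRB1 (299 ± 27.7). HLA-DPA1 (133 ± 6.15) and HLA-DQB1 (128 ± 2.84) did not differ beyond their spread, and HLA-DMA (75.0 ± 3.38), HLA-DQA1 (41.1 ± 1.32) and HLA-DPB1 (19.03 ± 3.08) came next. HLA-DMB was at 9.85 ± 0.230 CPM per kb. CIITA was the lowest at 3.97 ± 0.0131, but its level per length and its place are uncertain. All lengths come from a later annotation than the one the authors counted on, and the canonical CIITA transcript has 16061 bases there. How many of these bases were counted was not tested. Also, 21.6% of the exonic bases of CIITA are shared with overlapping genes such as DEXI. With the union of all exons as the length, HLA-DQB1 (42.0) stood before HLA-DPA1 (39.5) and HLA-DPB1 (14.5) before HLA-DQA1 (9.40), so that neither order holds. In H929-labelled DMSO CD74 came first with 4122 ± 499.9 CPM per kb, before HLA-DRA (1572 ± 150.1) and HLA-DRB1 (322 ± 28.0). By the union of exons HLA-DRA (1561) stood before CD74 (1505), so first place depends on the length used. HLA-DQB1 stood there at 38.4 ± 3.24, below HLA-DQA1 at 129 ± 16.95. Only reads with a single position on the reference haplotype were counted. The part of this in the order of the polymorphic chains was not tested.

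The question of the study design was which genes lose expression when CDK7 is inhibited. In JJN3, the level of CIITA fell 3.06-fold with THZ1, while none of the 6 chains whose transcription it drives was called lower. Of the 10 genes, all of which passed the filter on low counts, 2 were lower (CIITA and HLA-DMB), 2 were higher (CD74 and HLA-DRB1) and 6 passed in neither direction, with a median log2 fold change of 0.15. Over the 13984 genes tested, 21.3% were lower and 20.6% higher with a median of 0.00, so the shares of 2 in 10 were near the background. A gene was called at an adjusted p under 0.05 (Benjamini-Hochberg over all genes tested) and an absolute log2 fold change over 0.5, with edgeR's quasi-likelihood test. The counts per gene come from cultured lines as a whole, in which fewer cells of a type and less RNA per cell cannot be told apart. Each library was scaled to its other genes, so lower, higher and unchanged are relative here. A change in the total RNA of a cell was not measured, and a gene not called lower may still have lost RNA per cell.

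CIITA (chr16:10960079-11036878 on GRCh37, plus strand) had 1213 and 1220 counts under DMSO and 322 and 374 under THZ1, or 63.9 and 63.6 against 19.1 and 20.4 CPM. The groups lay far apart with little spread within either. The log2 fold change was -1.61 (SE 0.092, edgeR adjusted p = 7.7e-07). Its rank by count went from 3877 and 3857 to 7072 and 6989. Since the setting for strand in the authors' counting is not given in the sources used here, reads of CIITA and of DEXI in their shared exons cannot be told apart.

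The alpha chain gene HLA-DRA (chr6:32407655-32412823, plus strand) had 33846 and 37865 counts under DMSO and 34608 and 41711 under THZ1, which gave 1783 and 1974 against 2052 and 2275 CPM. The CPM values did not overlap, but the log2 difference of 0.28 (SE 0.12) missed the threshold (edgeR adjusted p = 0.056). Its partner HLA-DRB1 (chr6:32545679-32557625, minus strand), the polymorphic beta chain, had 341 and 389 CPM under DMSO and 443 and 610 under THZ1. It was higher by 0.60 on the log2 scale (SE 0.13, edgeR adjusted p = 0.0027), but the value was 0.36 without THZ1 replicate 2 and 0.49 without DMSO replicate 1, both under the limit. HLA-DRB5, a further beta chain gene that shares 8.49% of its 50-base stretches with HLA-DRB1, was higher by 0.53 (SE 0.14, edgeR adjusted p = 0.006). Its log2 difference was under the limit without THZ1 replicate 2 (0.25), without DMSO replicate 1 (0.46), with total counts (0.43) and with no filter (0.49), and DESeq2 gave an adjusted p of 0.11.

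The DP and DQ chains overlapped between the groups with 1 exception. HLA-DPA1 (chr6:33032346-33048552) had 220 and 235 CPM under DMSO and 211 and 288 under THZ1 (log2 difference 0.21, SE 0.12). HLA-DPB1 (chr6:33043767-33057473) had 67.3 and 84.6 against 58.9 and 87.6 CPM (0.02, SE 0.16). In both, the 2 THZ1 libraries lay on either side of the DMSO values. HLA-DQA1 (chr6:32595956-32614839) had 63.2 and 66.1 CPM under DMSO and 43.2 and 84.6 under THZ1 (0.06, SE 0.22), the widest spread within a JJN3 group among the 10 genes on the log scale. HLA-DQB1 (chr6:32627244-32636160) was the exception, with 202 and 209 against 243 and 257 CPM. Its log2 difference of 0.36 (SE 0.08) had an edgeR adjusted p of 0.0026 but stayed under the limit of 0.5.

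The direction of several chains rested on 1 library. JJN3 THZ1 replicate 2 was above replicate 1 in all 10 genes, with a median log2 difference of 0.38 (0.05 to 0.97) where all genes tested had a median of 0.02 and a 5th to 95th percentile of -0.54 to 0.55. Without replicate 2 the fold change of HLA-DQA1 was -0.50 (edgeR adjusted p = 0.00023), just within the limit, and that of HLA-DPB1 -0.28 (edgeR adjusted p = 0.046). Without replicate 1 they were 0.45 (edgeR adjusted p = 0.0002) and 0.27 (edgeR adjusted p = 0.043). HLA-DPA1 and HLA-DMA also changed sign without replicate 2, to -0.02 and -0.07. CIITA (-1.65), HLA-DMB (-1.40) and CD74 (0.56) kept their direction and their call without it.

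CD74 (chr5:149781200-149792532, minus strand), which encodes the invariant chain, had 28976 and 28957 counts under DMSO and 35605 and 40128 under THZ1. The 2 groups, at 1526 and 1509 against 2111 and 2189 CPM, did not overlap. It was 1.49-fold higher (log2 0.58, SE 0.11, edgeR adjusted p = 0.00071). Scaled by total counts alone, the log2 fold change was 0.48 and no longer past the limit. Of 5 known partners of CD74 outside antigen presentation, 3 were tested, and the coreceptor CD44 was higher (log2 1.29, SE 0.086, edgeR adjusted p = 1.1e-06). The chemokine receptor CXCR4 had 128 and 140 against 115 and 116 CPM (-0.14).

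The HLA-DM pair parted. HLA-DMB (chr6:32902406-32908805, minus strand), the beta chain of the peptide editor, had 248 and 259 counts under DMSO and 80 and 119 under THZ1, and fell by 1.16 on the log2 scale (SE 0.17, edgeR adjusted p = 0.00017). HLA-DMA (chr6:32916390-32936871, minus strand), the alpha chain, had 79.4 and 84.6 CPM under DMSO and 73.5 and 91.6 under THZ1, values that overlapped (log2 difference 0.09, SE 0.10). The count ratio of HLA-DMA to HLA-DMB within a library was 6.08 and 6.27 under DMSO and 15.5 and 14.1 under THZ1. HLA-DOA, the alpha chain of the HLA-DM inhibitor, had 146 and 134 counts under DMSO and 50 and 56 under THZ1, and fell by 1.21 (SE 0.20, edgeR adjusted p = 0.00035). Its partner HLA-DOB was counted 27 and 24 times against 13 and 11 (log2 difference -0.89, SE 0.37, edgeR adjusted p = 0.061). Overlapping genes share 30.4% of the exonic bases of HLA-DOB, 11.6% of those of HLA-DMB and 8.53% of those of HLA-DMA. The part of this overlap in the values was not tested. Of the 8 other class II genes listed, 4 could be tested in JJN3, 1 being lower and 1 higher with a median of -0.18. Over all genes tested 21.3% were lower and 20.6% higher. HLA-DQA2 had 1, 2, 0 and 0 counts and HLA-DQB2 none in JJN3, below the floor.

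**Figure D3:**
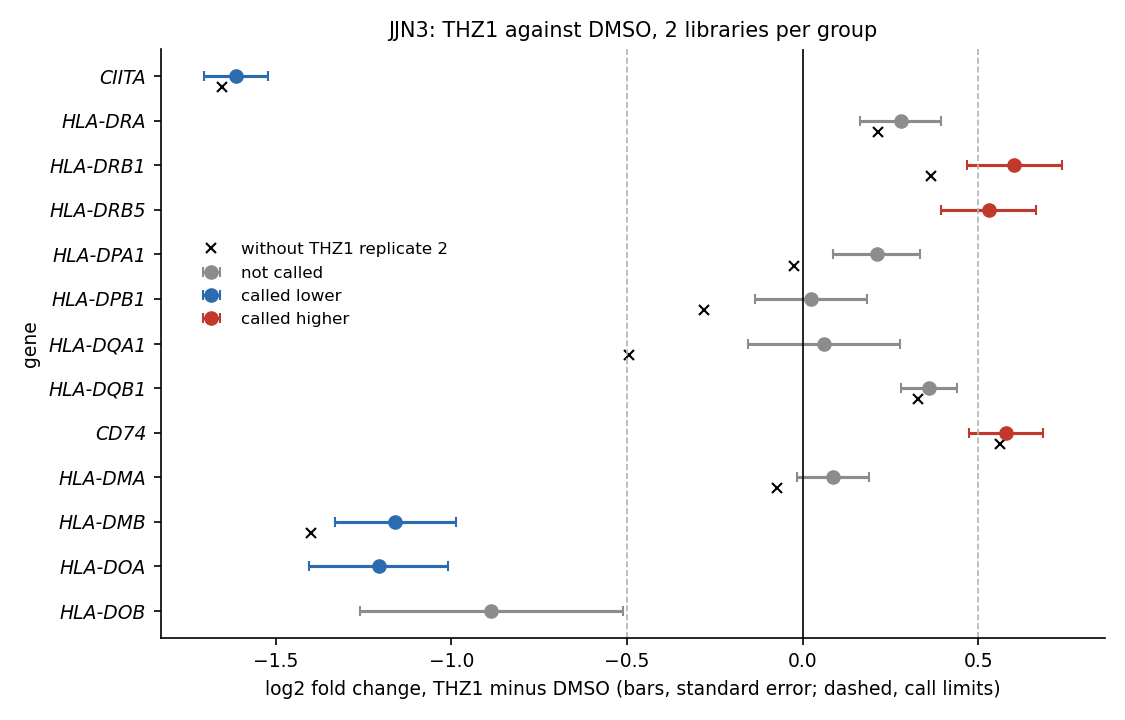
Log2 fold change, THZ1 minus DMSO, of class II genes in JJN3 with bars of 1 standard error (n = 2 libraries per group), call limits as dashed lines, and crosses for the fit of the 10 main genes without THZ1 replicate 2. CIITA, HLA-DMB and HLA-DOA lie left of the limit, the DR, DP and DQ chains near or right of 0, and the crosses of HLA-DPB1 and HLA-DQA1 left of 0.

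Relative to CIITA, HLA-DRA and CD74 were more abundant after THZ1 in both replicates. The count ratio of HLA-DRA to CIITA was 27.9 and 31.0 in JJN3 DMSO and 107 and 112 in JJN3 THZ1, with that of CD74 to CIITA going from 23.9 and 23.7 to 111 and 107. The alpha to beta ratios moved less. HLA-DRA to HLA-DRB1 was 5.23 and 5.07 against 4.63 and 3.73, and HLA-DPA1 to HLA-DPB1 3.27 and 2.77 against 3.58 and 3.29. HLA-DQA1 to HLA-DQB1 was 0.312 and 0.317 against 0.178 and 0.329, which overlapped. No test was made of these ratios, as the smallest two-sided exact permutation p that 2 libraries against 2 allow is 0.333.

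**Figure D4:**
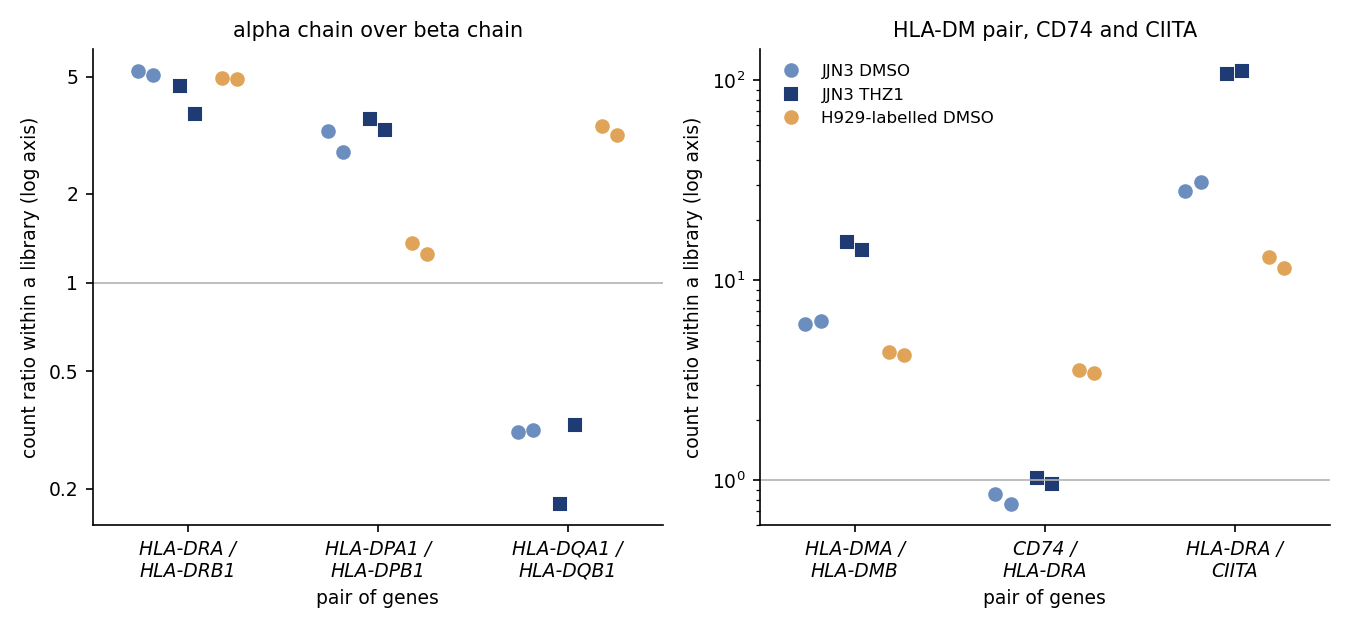
Count ratios within each library on log axes, alpha over beta chain on the left and the HLA-DM pair, CD74 over HLA-DRA and HLA-DRA over CIITA on the right, with 2 points per group. The HLA-DRA to CIITA ratio is 27.9 and 31.0 in JJN3 DMSO and 107 and 112 in JJN3 THZ1, and the HLA-DQA1 to HLA-DQB1 ratio lies above 1 in H929-labelled DMSO and below 1 in JJN3.

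Of 7 genes for the promoter complex on which CIITA docks, 2 were lower and 1 higher in JJN3, with a median of -0.18. Over all 13984 genes tested 21.3% were lower and 20.6% higher, so nothing is read from these counts. RFX5, the DNA-binding subunit of the RFX complex, had 338 and 326 CPM under DMSO and 127 and 129 under THZ1 (log2 -1.30, SE 0.080, edgeR adjusted p = 9.4e-07). RFXANK, a further RFX subunit, fell by 0.67 (SE 0.093, edgeR adjusted p = 0.00011), while RFXAP, the third, had 15.1 and 15.4 against 11.6 and 14.02 CPM (-0.18, SE 0.13). NFYA, which gives NF-Y its sequence specificity, was higher by 0.62 (SE 0.10, edgeR adjusted p = 0.00037), but by 0.47, under the limit, without THZ1 replicate 1. NFYB was at -0.46, within the limit, and NFYC and CREB1 at -0.08 and -0.14.

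The shares over all genes tested in JJN3 were 21.3% lower and 20.6% higher. Among 14 genes known to act on CIITA expression, 11 were tested, of which 2 were lower and 3 higher (median -0.03), near those shares. Among those lower, IRF4, a lineage factor of plasma cells, fell by 0.55 (SE 0.093, edgeR adjusted p = 0.00041). The kinase JAK1 (1.23) and the receptor chain IFNGR1 (0.59), which relay the interferon gamma signal, were higher, as was the repressor BCL6 (0.96). IFNGR2 and JAK2 of the same relay were not called, at -0.13 to 0.041 and -0.0185 to 0.25 over the alternatives run. The genes of the relay thus did not move together. IFNGR1 was under the limit with total counts (0.48). PRDM1, the repressor of CIITA in plasma cells, had 178 and 159 against 238 and 212 CPM (0.49, SE 0.092), just under the limit. IRF1, with 19.4 and 21.3 against 16.4 and 17.4 CPM, did not pass (-0.19). SPI1, PAX5 and IRF8 were below the filter in JJN3. Of 9 cofactors of CIITA 4 were higher and 0 lower (median 0.42), the acetyltransferase genes CREBBP (1.15), EP300 (0.94) and KAT2B (0.77) and the deacetylase gene HDAC1 (0.54), which was under the limit with total counts (0.44) and with no filter.

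Genes of the endosomal route that serves class II loading were mostly higher in JJN3 after THZ1. Of 10 listed, 8 were tested, 6 were higher and 0 lower, with a median of 1.01, against a background of 20.6% higher over all genes. The protease genes LGMN (1.30), CTSB (1.23) and CTSD (1.00), the CD74-cutting intramembrane protease SPPL2A (0.85), and the ubiquitin ligases MARCH8 (1.07) and MARCH1 (1.03), which remove class II from the surface, made up the 6. Without DMSO replicate 1, MARCH1 missed the threshold (0.80, edgeR adjusted p = 0.051). CTSS, the protease that trims the last CD74 fragment in B cells, had 129 and 136 against 142 and 132 CPM (0.13). IFI30 had 4 to 9 counts per JJN3 library and was not tested. Of 10 genes of the class I pathway, the counterpart for peptides from the cytosol, 4 were lower and 3 higher (median 0.07). All genes tested had shares of 21.3% lower and 20.6% higher. The peptide transporter genes TAP1 (-0.68) and TAP2 (-0.72) and the immunoproteasome genes PSMB8 (-0.86) and PSMB9 (-1.67) were lower, and those higher included B2M (0.74) and HLA-C (0.55), the latter under the limit without THZ1 replicate 1 (0.34) and with total counts (0.45). Beside these changes 5 of 8 plasma cell genes were lower in JJN3 THZ1, against 21.3% of all genes tested. The summed level of the 8 went from 2111 and 2113 to 1437 and 1423 CPM. The part of these changes in the class II values was not tested.

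**Figure D5:**
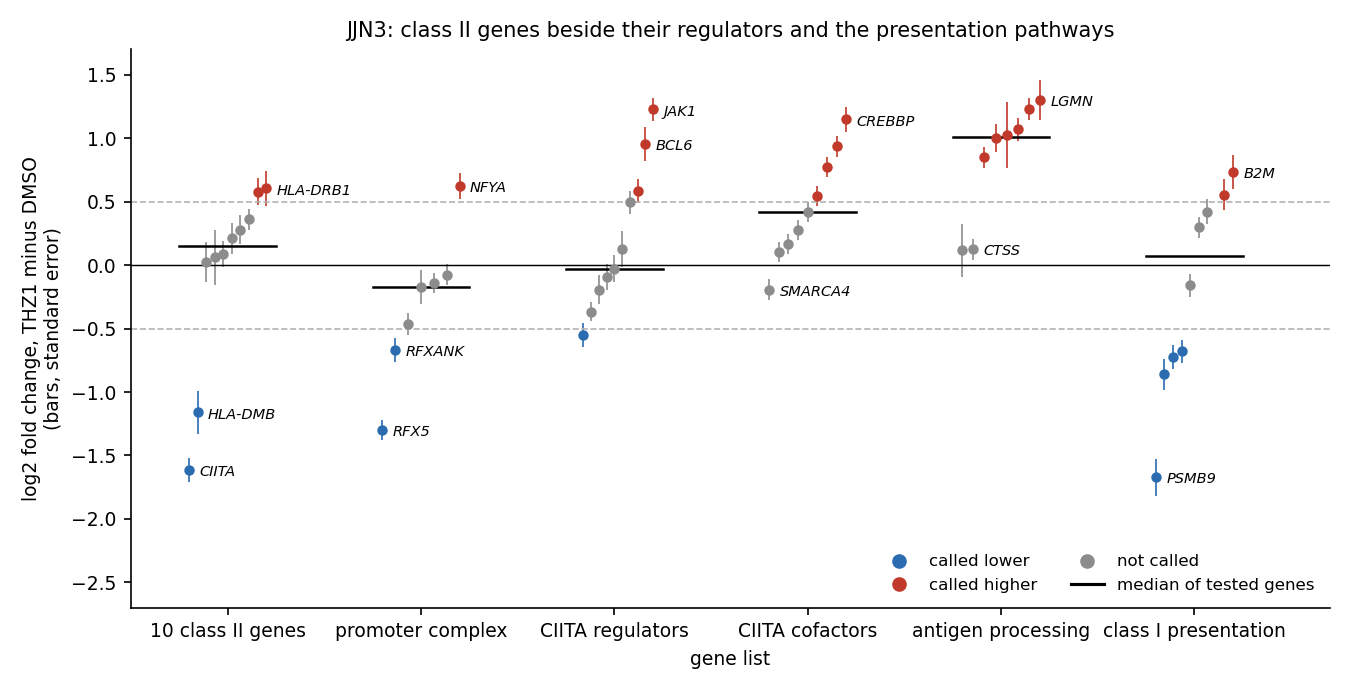
Log2 fold change, THZ1 minus DMSO, in JJN3 of the tested genes in 6 lists (2 genes are not drawn), with bars of 1 standard error, blue for lower, red for higher and grey for genes not called, and a black line at the median of all tested genes of a list. CIITA, RFX5 and PSMB9 lie below -1, the antigen processing genes have a median of 1.01, and the 10 class II genes one of 0.15.

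The solvent controls of both labels were then compared, which share their samples with the treatment contrasts. The counts of the class II chains stood in different proportions between the labels. Of the 10 genes 6 were lower in JJN3 DMSO than in H929-labelled DMSO, 1 was higher and 3 passed in neither direction, where 33.0% of 14590 genes were lower and 32.6% higher, and the median of the 10 was -0.996. CD74 had 1526 and 1509 CPM in JJN3 and 7397 and 6229 in H929-labelled DMSO (log2 -2.19, SE 0.076). Its values in the H929-labelled libraries had been used before, so no p-value is given and its place among the 6 is a description. CIITA had 63.9 and 63.6 against 159 and 157 CPM (-1.34, SE 0.057, edgeR adjusted p = 4.4e-11). HLA-DRA, in contrast, was at 1783 and 1974 against 2072 and 1810 CPM, values that overlapped (-0.07, SE 0.073, edgeR adjusted p = 0.35). HLA-DRB1 overlapped as well (-0.13, SE 0.071), and HLA-DPA1 was at -0.31, within the limit.

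The DQ pair went in opposite directions. HLA-DQA1 had 63.2 and 66.1 CPM in JJN3 and 222 and 184 in H929-labelled DMSO (log2 -1.68, SE 0.078, edgeR adjusted p = 1.2e-10). HLA-DQB1 had 202 and 209 against 65.4 and 58.0 (1.71, SE 0.064, edgeR adjusted p = 1.1e-11). The count ratio of HLA-DQA1 to HLA-DQB1 was 0.312 and 0.317 in JJN3 and 3.39 and 3.17 in H929-labelled DMSO. DQ genes are highly polymorphic, and the authors kept uniquely mapped reads on the reference haplotype, whose part in this ratio was not tested. HLA-DPB1 (-1.50), HLA-DMA (-0.73) and HLA-DMB (-1.26) were lower in JJN3. HLA-DQA2 and HLA-DQB2, near copies of the DQ genes, were counted 1331 and 1135 times and 380 and 347 times in H929-labelled DMSO. Against the 3 HLA-DQA2 counts in both JJN3 DMSO libraries together this was an 852-fold ratio (95% counting interval 291 to 4134), and HLA-DQB2, with 0 counts in JJN3 DMSO, was at least 251-fold higher, taking 3 counts over the group as the floor. Reads from stretches that the copies share, 10.4% of the 50-base stretches of HLA-DQA2, are not kept as unique. Without H929-labelled DMSO replicate 2, the same counts of 6 lower and 1 higher were found.

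In the H929-labelled libraries, each of the 10 genes was lower with the THZ1 label than with the DMSO label. This contrast is a description, since the cells of the groups differ in their light chain. The genes passed the filter on low counts through the DMSO libraries, where they are high, so nothing is read from the count of 10 beyond the limits for lower, beside 32.6% of 14863 genes (33.1% were higher). CD74 was counted 138069 and 113159 times with DMSO and 3 and 24 times with THZ1, a 9497-fold ratio (95% counting interval 6527 to 14411). HLA-DRA was counted 38682 and 32890 times against 4 and 3, a 10436-fold ratio (5065 to 25957). HLA-DPB1, with 4036 and 3748 counts against 1 and 2, had a ratio of 2648 (906 to 12844). HLA-DRA and HLA-DPB1 were at or near the floor of 3 counts in both THZ1-labelled libraries, CD74 in replicate 1 alone. The intervals cover counting error, and the CD74 value moved beyond its own, with a log2 fold change of -13.21 over all libraries, -12.38 without THZ1 replicate 1 and -15.33 without THZ1 replicate 2.

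CIITA itself was not at the floor, with 2968 and 2860 counts against 12 and 13, a 238-fold ratio (161 to 368). HLA-DQB1 kept 70 and 61 counts and HLA-DMA 55 and 44, so that their ratios of 17.7 (14.9 to 21.3) and 50.9 (41.7 to 62.7) were the smallest of the 10. HLA-DRB1 (322-fold), HLA-DPA1 (145-fold), HLA-DQA1 (588-fold) and HLA-DMB (195-fold) lay between. HLA-DMB, with 5 and 1 counts, went from -7.57 on the log2 scale to -9.02 without THZ1 replicate 1 and -6.85 without THZ1 replicate 2. The 6 other class II genes tested were lower in these libraries. HLA-DOA was at least 444-fold and HLA-DQB2 at least 247-fold lower, both at 0 counts in the THZ1-labelled libraries. HLA-DOB was 3.34-fold lower (2.43 to 4.67), but 30.4% of its exonic bases are shared with an overlapping gene. Without DMSO replicate 2, which held CD44 and SLAMF7 counts, the count was 10 as well, from which nothing is read either.

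The promoter complex did not follow the class II genes there. Over all 14863 genes of this contrast 32.6% were lower and 33.1% higher. RFX5 had 180 and 191 CPM with DMSO and 146 and 141 with THZ1, RFXAP 9.91 and 10.7 against 8.41 and 8.67, and of the 7 genes 1 was lower and 1 higher with a median of -0.31. The regulators of CIITA differed widely. PRDM1 was counted 1241 and 1404 times with DMSO and 10725 and 11026 times with THZ1, while SPI1 (546 and 495 against 0 and 3 counts) and IRF8 (632 and 594 against 3 and 3) went the other way. Of 8 plasma cell genes 6 were higher and 2 lower under the THZ1 label, with a summed level of 1771 and 1907 against 7024 and 6878 CPM. Of the class I genes 4 were lower and 1 higher (median -0.38), HLA-B being at 641 and 609 against 168 and 158 CPM. The part of these differences in the class II values was not tested.

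The THZ1 libraries of both labels were also set against each other. Each of the 10 was higher in JJN3 THZ1 than in H929-labelled THZ1, with log2 differences such as 4.90 for CIITA and 13.48 for HLA-DRA. Over all 14981 genes 32.5% were called higher and 34.0% lower. The difference between the treatment contrasts of both labels, fitted over all 8 libraries, was above 0 for each of the 10 genes, and over all 16122 genes 25.5% were called higher and 28.1% lower. Since the genes were chosen for these values, nothing is read from the counts of 10. The difference was 4.51 for HLA-DQB1, 13.58 for HLA-DRA and 13.78 for CD74 on the log2 scale, the last running from 12.93 without H929-labelled THZ1 replicate 1 to 15.89 without replicate 2, so that CD74 and HLA-DRA have no fixed order. These contrasts share the H929-labelled libraries with those above and add no separate observation.

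A few other genes had a profile over the 8 libraries like that of CD74 or HLA-DRA. Likeness was the root mean square difference of centred log2 CPM over 8949 genes with enough counts. Closest to HLA-DRA was PEG10 (0.685), a gene derived from a retrotransposon, with 6384 and 5590 counts in H929-labelled DMSO, 1 and 0 in H929-labelled THZ1, 7107 and 6924 in JJN3 DMSO and 17930 and 17457 in JJN3 THZ1. MGST1 (1.08) and CDCA7 (1.32) followed. Closest to CD74 was the membrane protease gene ST14 (1.34), with 6128 and 5962 counts in H929-labelled DMSO, 3 and 5 in H929-labelled THZ1, 3225 and 3170 in JJN3 DMSO and 3381 and 4050 in JJN3 THZ1, before PEG10 (1.41) and CDCA7 (1.42). All share the near absence in the H929-labelled THZ1 libraries, which follows from picking the genes by likeness and is no separate observation.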

How the data were processed

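RNA of 8 libraries was sequenced as single-end reads of 50 bases. Per the methods and the submitters' processing notes, the authors used STAR (2.5.2a) on hg19, keeping reads with a single position, and counted reads per Ensembl gene with featureCounts. The strand setting is not given in the sources used here. The deposited tables hold raw counts. The authors' DESeq2 (1.12.4) tables of fold changes, normalized means and p-values were not used except for their column of gene symbols. No per-sample column was left unmapped.

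Counts were tested with edgeR (4.0.16; R 4.3.3) by the quasi-likelihood test after TMM scaling and filterByExpr, with only the groups compared in a fit, or all 8 libraries for the difference between contrasts, and Benjamini-Hochberg adjustment over all genes tested. SE is the absolute log2 fold change over the root of F. The code was tested on simulated data before use. For JJN3, among 13736 genes, 97 of 98 changed by 2 on the log2 scale were recovered, and 78 of 99 changed by 1. For the difference between contrasts, 86 of 98 changed by 2 and 58 of 97 changed by 1 were recovered. Changes smaller than 1, which most of the class II genes had in JJN3, were not part of this check, so their recovery is not known. CPM values in the text are TMM-scaled over all 8 libraries. Lengths and GRCh37 positions come from GENCODE v44lift37, promoter windows from RefSeq (GRCh38.p14), and no positions were converted. Alternatives were DESeq2 (1.42.0), other scalings and filters, other limits, a replicate block, summed identifiers and leaving out each library. Libraries of a group differed beyond sampling noise (chi-square per degree of freedom 3.36 to 11.3), so none was merged.

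The 10 genes and the lists of partners, regulators and markers were chosen with earlier results of these data known. All members were to be named, list genes past the limits first, and the 3 genes most alike in profile to CD74 and to HLA-DRA. Values of some list genes are not reported here.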

Additional observations from a re-analysis of the deposited data

Results flagged for a closer look

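By the fit over all 8 libraries, the JJN3 contrast minus the H929-labelled contrast was 13.78 for CD74 and 13.58 for HLA-DRA on the log2 scale. It was 11.28 for HLA-DPB1, 9.24 for HLA-DQA1 and 8.93 for HLA-DRB1. The genes were chosen with these values known, so nothing is read from the number of genes that differed. Over all 16122 genes 25.5% were called higher and 28.1% lower. The CD74 value was 12.93 without H929-labelled THZ1 replicate 1 and 15.89 without replicate 2. The values were 7.39 for HLA-DPA1, 6.40 for HLA-DMB, 6.27 for CIITA, 5.76 for HLA-DMA and 4.51 for HLA-DQB1. In each gene the H929-labelled contrast was larger in size than the JJN3 contrast, and its groups also differ in their light chain, so that the agent and the origin of the cells cannot be told apart. The groups of 2 libraries allow no check for a single distant library.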

How the results depend on the processing

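In JJN3 the count of genes higher with THZ1 was 2, and 1 with scaling by total counts, 0 with a log2 limit of 1, 3 by the adjusted p alone (HLA-DQB1 added), and 1 to 2 when a library was left out, the lone library of its group then being assumed to vary like the other group. The count of genes lower stayed at 2 under every alternative run. Chains near 0 in JJN3 changed sign. Scaled by total counts, HLA-DPB1 was at -0.076, HLA-DQA1 at -0.036, HLA-DMA at -0.0145 and the cofactor CARM1 at -0.0012. HLA-DPB1 was at -0.017 with no filter. With the replicate number as a block HLA-DQA1 was at -0.0039. With libraries left out in turn, HLA-DPA1 ran from -0.024 to 0.41, HLA-DPB1 from -0.28 to 0.27, HLA-DQA1 from -0.50 to 0.45 and HLA-DMA from -0.073 to 0.23, and among list genes IFNGR2 from -0.11 to 0.041, JAK2 from -0.018 to 0.25, USF1 from -0.23 to 0.032, CTSH from -0.038 to 0.25 and CD38 from -0.43 to 0.22. Between the DMSO groups HLA-DRA ran from -0.16 to 0.017. The counts of 6 lower and 1 higher between the DMSO groups moved by less than 1.5 times under every alternative run. So did the counts of 10 in the contrasts with H929-labelled THZ1 libraries, but nothing is read from this. Those genes were chosen with the values known, and their differences are far beyond the limits.

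Replicate numbers are shared by the groups, but libraries with the same number did not deviate together (correlations of 0.011, -0.0094, 0.013 and 0.0052 over 16141 genes). The replicate block left 2 genes lower and 2 higher in JJN3 and changed no call of the 10 genes. Depth limits the H929-labelled THZ1 values, of which several are at or under 3 counts.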
